A study of Arabidopsis thaliana with 12 samples.

Results

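Transcript levels of all genes were compared between the Arabidopsis thaliana lines MUTEPPP#3 and MUTEv5#2, by 3 RNA-seq libraries of each, which are 6 of the 12 libraries of the study. Both lines are homozygous mute-3 loss-of-function plants that carry a *MUTE* transgene under the *MUTE* promoter. MUTEPPP#3 (line 3) makes a protein with the substitutions H3P, E7P and R11P, and MUTEv5#2 (line 2) makes a protein with the substitution R10W and forms moderately clustered stomata, per the submitters. Each library came from 50 whole seedlings pooled at 2 days post-germination, without further treatment. Growth was at 21 °C on MS plates containing 1% sucrose, in days of 16 h light at 70 µmol m-2 s-1 and 8 h dark. The other 6 libraries are of the same background and age: MUTEv5#5, a second line of the R10W allele with a severe phenotype of arrested lineages, and MUTE, which carries the wild-type protein. MUTEPPP is represented by a single line, so effects of allele, line and insertion site cannot be told apart, and the same holds for MUTEv5#2 in this comparison. Of the 23071 genes in the counts, 22636 passed the filter on low counts and were tested.

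Stomata arise from a short lineage of dividing epidermal cells. The bHLH factor SPCH starts the lineage and keeps its asymmetric divisions going, MUTE ends them and commits the cell to become a guard mother cell, and FAMA ends division after the guard cell pair has formed and drives the making of guard cells. SCRM and SCRM2 are the bHLH partners of all of these. Peptides of the EPF family, read by the ERECTA family receptor kinases with the receptor-like protein TMM, set the spacing of stomata, and BASL and POLAR mark the polarity of the asymmetric divisions.

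The altered residues lie in the first codons of *MUTE*, at the start of its bHLH region (AT3G06120, chr3:1846442-1848259, plus strand; coding start in exon 1, chr3:1846531-1846566, plus strand, RefSeq TAIR10.1). The reference sequence of the first 12 codons is shown to place the substitutions, with the codons of residues 3, 7, 10 and 11 in capitals. They encode H, E, R and R, as the submitters' numbering requires.
MUTE wild-type coding start: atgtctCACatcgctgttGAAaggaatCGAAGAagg

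The 6 libraries held 125291842 to 152600825 counts each. Markers of shoot and root were both present in the whole seedlings: all 20 photosynthesis genes, all 13 root cell type genes and all 7 vascular genes of the lists were measured. Over genes, which are not independent replicates, the Pearson r between libraries of the same line was 0.980 to 0.992 among these 6. The libraries differed in the state of the circadian clock. A clock index, the mean log2 CPM (counts scaled to a common library size with TMM factors) of 12 morning clock genes minus that of 13 evening clock genes, stood at 1.24, -1.46 and -2.37 in MUTEPPP#3 replicates 1, 2 and 3, against 2.63, 2.34 and 1.76 in MUTEv5#2. The lines do not overlap in this index, and MUTEPPP#3 replicates 2 and 3 stood apart from the other 10 libraries, which ran from 1.24 to 4.32. The time of day of harvest was not given in the sources used here, and harvest time and line cannot be told apart. The share of counts on organelle and ribosomal RNA genes was 2.12%, 0.575% and 1.18% in MUTEPPP#3, against 1.1%, 2.5% and 2.92% in MUTEv5#2, with overlap. Groups of results below are followed by values from a fit with the clock index as a covariate, and by values with MUTEPPP#3 replicate 1 as the only MUTEPPP#3 library. The first of these cannot separate clock state from line, as the lines do not overlap in the index. In the second of these the lone library is taken to vary like those of the other lines, and 5 of all genes tested were called, so it is used for the size and sign of fold changes and not for calls.

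**Figure D1:**
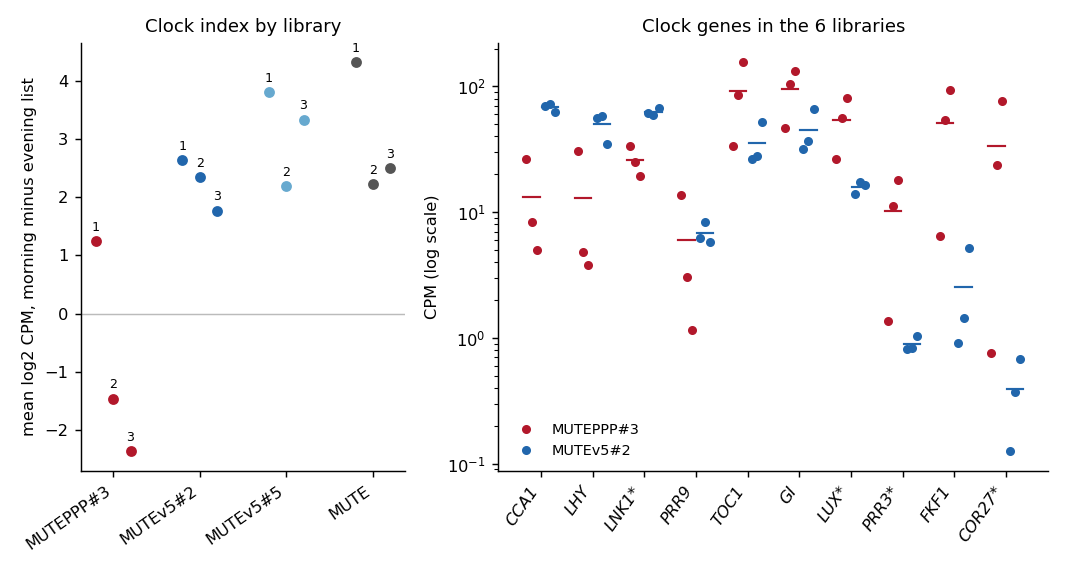
Left, the clock index of each of the 12 libraries (y axis, difference of mean log2 CPM), with replicate numbers above the points. Right, the level of 10 clock genes (CPM, log scale) in the 3 MUTEPPP#3 and 3 MUTEv5#2 libraries, with a bar at the mean and an asterisk for an adjusted p under 0.05. MUTEPPP#3 replicates 2 and 3 have an index of -1.46 and -2.37, and the lowest index of MUTEv5#2 is 1.76.

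Between the lines, 558 of 22636 genes (2.47%) passed an adjusted p of 0.05 by the quasi-likelihood test of edgeR: 241 were higher in MUTEPPP#3 (1.06%) and 317 were lower (1.4%). Of these, 92 were higher (0.406%) and 97 lower (0.429%) by at least 2-fold, 0.835% of genes tested in all. In 27.2% of all genes tested, the 3 MUTEPPP#3 values lay all above (11.6%) or all below (15.6%) the 3 MUTEv5#2 values. The median log2 fold change (MUTEPPP#3 over MUTEv5#2, here and below) over all genes was -0.02. How many genes were called changed when single libraries were left out, which also leaves fewer libraries in the fit. The count was 1904 without MUTEPPP#3 replicate 1, 40 without MUTEPPP#3 replicate 2 and 104 without MUTEPPP#3 replicate 3. It was 107, 82 and 126 without MUTEv5#2 replicates 1, 2 and 3. With the clock index as a covariate 16 genes were called, 11 of them among the 558, and with the organelle and ribosomal share 41 were called, all among the 558. The fold changes moved less than the counts. Under the clock index 99.82% of the 558 kept their sign, and their log2 fold change was a median of 0.802 times the value without it, with a median SE of 0.191 against 0.144.

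Genes of the dividing stomatal lineage were lower in MUTEPPP#3 than in MUTEv5#2, and genes of mature guard cells were higher. Of 13 early lineage genes 7 were called lower and 1 higher, with a median log2 fold change of -0.53, against 1.4% and 1.06% called and a median of -0.02 over all genes tested. Of 16 guard cell genes 9 were called higher and 1 lower, with a median of 0.68. The lists, here and below, were chosen with earlier results of these data known, so their shares called are descriptive. The 3 lineage bHLH factors did not go the same way: *FAMA* was higher, *SPCH* was lower, and *MUTE* was lower in every library without passing the test. In RNA of whole seedlings, fewer cells of a type and less RNA per cell cannot be told apart.

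*MUTE* itself stood at 6.93, 5.42 and 5.32 CPM in MUTEPPP#3, against 12.9, 10.8 and 8.26 CPM in MUTEv5#2. All 3 MUTEPPP#3 libraries lay below all 3 MUTEv5#2 libraries, and the log2 fold change was -0.86 (adjusted p = 0.0648, SE 0.217), with a 95% interval of -1.33 to -0.38. The counts join the transgene with the mute-3 locus. *MUTE* was called with DESeq2, with a replicate block and without MUTEPPP#3 replicate 1. Its log2 fold change was -0.29 with the clock index as a covariate.

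*SPCH* (AT5G53210, chr5:21586219-21589255, minus strand) had 7.195, 6.89 and 7.52 CPM in MUTEPPP#3, against 13.6, 15.02 and 11.01 CPM in MUTEv5#2. The MUTEPPP#3 libraries were close to each other and all below MUTEv5#2, and the log2 fold change was -0.88 (adjusted p = 0.0228, SE 0.157). *FAMA* (AT3G24140, chr3:8715118-8718211, minus strand) had 21.9, 22.7 and 23.9 CPM in MUTEPPP#3, against 12.8, 12.3 and 12.01 CPM in MUTEv5#2. Here each MUTEPPP#3 library was above each MUTEv5#2 library, with a log2 fold change of 0.89 (adjusted p = 0.0132, SE 0.135). *FAMA* averaged 7.42 ± 1.603 CPM in MUTEv5#5 and 20.6 ± 2.13 CPM in MUTE (SD, n = 3 each). *SCRM* stood at 55.6, 56.2 and 53.9 CPM in MUTEPPP#3, against 82.5, 82.98 and 75.97 CPM in MUTEv5#2. It was lower in every MUTEPPP#3 library, by a smaller difference (-0.54 (adjusted p = 0.00914, SE 0.0734)). *SCRM2* was also lower in every MUTEPPP#3 library but with a wide spread (31, 33.1 and 48.7 CPM, against 53.2, 53.2 and 56.9 CPM in MUTEv5#2), and did not pass (-0.53, adjusted p = 0.143).

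The polarity genes *BASL* and *POLAR* were lower. *BASL* had 3.81, 3.63 and 3.53 CPM in MUTEPPP#3, against 9.07, 7.31 and 7.01 CPM in MUTEv5#2, or a fold change of -1.09 (adjusted p = 0.00614, SE 0.135) on the log2 scale. This call held without any 1 of the 6 libraries, with values of -1.16 to -0.97. *POLAR* had 4.21, 4.45 and 5.72 CPM in MUTEPPP#3, against 7.88, 8.05 and 7.53 CPM in MUTEv5#2 (-0.71 (adjusted p = 0.0187, SE 0.119)). *POLAR* overlaps a gene on the other strand, and no source used here gives the strand setting of the counting. The partner gene *BRXL2* did not pass (-0.02, adjusted p = 0.956).

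Among the signalling genes, receptors and 1 peptide of lineage entry were lower. *TMM* (AT1G80080, chr1:30127819-30129649, minus strand) had 18.8, 16.8 and 17.1 CPM in MUTEPPP#3, against 37.8, 36.05 and 28.6 CPM in MUTEv5#2, a log2 fold change of -0.96 (adjusted p = 0.0113, SE 0.139). It averaged 44.7 ± 4.66 CPM in MUTEv5#5 and 15.5 ± 2.48 CPM in MUTE. The peptide gene *EPF2*, which limits entry into the lineage, had 3.16, 2.98 and 3.56 CPM in MUTEPPP#3, against 9.29, 7.16 and 4.72 CPM in MUTEv5#2. Its MUTEv5#2 libraries differed by almost as much as the lines do, and the log2 fold change was -1.13 (adjusted p = 0.0418, SE 0.245). The receptor kinase gene *ERL1* had 5.57, 5.57 and 5.57 CPM in MUTEPPP#3, against 13.4, 11.7 and 8.86 CPM in MUTEv5#2 (-1.02 (adjusted p = 0.00975, SE 0.141)), and overlaps a gene on the other strand. Its paralog *ERL2* had 14.8, 15.3 and 16.4 CPM in MUTEPPP#3, against 23.4, 22.9 and 20.3 CPM in MUTEv5#2 (-0.52 (adjusted p = 0.028, SE 0.0989)). *SDD1*, a subtilase gene that limits stomatal number, was the single early lineage gene called higher, at 15.1, 17.4 and 19.2 CPM in MUTEPPP#3, against 8.66, 9.97 and 11.2 CPM in MUTEv5#2 (0.79 (adjusted p = 0.0244, SE 0.145)). *ER* (0.18), *EPF1* (0.34), *EPFL9*, the peptide gene that promotes stomata (-0.05), *YDA* (-0.28, adjusted p = 0.0929) and the MAP kinase genes *MPK3* (-0.10) and *MPK6* (-0.15) did not pass. In all, 4 of 18 signalling genes were called lower and 1 higher, against 1.4% and 1.06% of all genes tested. *TMM*, *EPF2*, *ERL2* and *SDD1* are also on the early lineage list and *ERL1* is on the guard mother cell list. These calls are therefore not separate from those of the other stomatal lists.

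Of the early lineage genes, the cyclin genes *CYCD3;1* (-0.25), *CYCD3;2* (-0.18) and *CYCD3;3* (0.26) did not pass. The guard mother cell list had *FAMA* higher and *ERL1* lower as its calls among 17 members, with a median of -0.19. Of all genes tested 1.06% were called higher and 1.4% lower. The cell cycle genes of that step, *CDKB1;1* (0.17), *CYCA2;3* (-0.21) and *CYCD5;1* (-0.03), were not called. *CYCD7;1*, a cyclin gene of the last division, was near the detection limit at 0.216, 0.0577 and 0.0515 CPM in MUTEPPP#3, against 0.118, 0.154 and 0.147 CPM in MUTEv5#2. Over the whole plantlet, division genes were not called either: 0 of 14 mitosis genes and 0 of 14 replication genes were called, with medians of 0.08 and 0.25. With 2.47% of all genes tested called, 0 of 14 sets neither list apart.

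*TGG1*, a myrosinase gene abundant in guard cells, had the highest counts of the guard cell list. It stood at 939.8, 1057 and 936 CPM in MUTEPPP#3, against 518, 448 and 498 CPM in MUTEv5#2, a log2 fold change of 1.00 (adjusted p = 0.0113, SE 0.146). Its paralog *TGG2* had 60.8, 77.8 and 68.3 CPM in MUTEPPP#3, against 43.9, 41.04 and 35.8 CPM in MUTEv5#2 (0.78 (adjusted p = 0.0122, SE 0.116)). *SLAC1*, the anion channel gene of stomatal closure, had 3.95, 3.81 and 3.68 CPM in MUTEPPP#3, against 1.56, 1.79 and 2.05 CPM in MUTEv5#2. This was a log2 fold change of 1.08 (adjusted p = 0.00914, SE 0.146), and the call held without any 1 of the 6 libraries (0.99 to 1.19); the gene overlaps genes on the other strand. The potassium channel gene *KAT2* had 7.22, 5.97 and 6.95 CPM in MUTEPPP#3, against 4.28, 4.62 and 3.69 CPM in MUTEv5#2 (0.68 (adjusted p = 0.0363, SE 0.139)). The kinase genes *BLUS1*, of blue light opening (0.96, adjusted p = 0.041), *HT1*, of the response to carbon dioxide (0.82, adjusted p = 0.0483), and *MPK12* (0.62, adjusted p = 0.0307) were higher. The counts of *BLUS1* may include reads of a gene it overlaps on the same strand. The Dof factor gene *SCAP1* was higher by 0.82 (adjusted p = 0.0409, SE 0.176).

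AT1G23200, annotated as a plant invertase or pectin methylesterase inhibitor family gene, had the largest log2 fold change of the guard cell list. It stood at 4.71, 5.38 and 4.44 CPM in MUTEPPP#3, against 1.33, 0.818 and 1.27 CPM in MUTEv5#2 (2.09 (adjusted p = 0.00633, SE 0.261)), and the call held without any 1 of the 6 libraries. AT5G06970, annotated as a DUF810 protein, was the single member called lower (-0.37, adjusted p = 0.0462). The anion channel gene *ALMT12* lay above MUTEv5#2 in every library but did not pass (0.68, adjusted p = 0.06). *MYB60* (0.40), *GORK* (0.35), *KAT1* (0.22), *CYP86A2* (0.35) and *OST1* (-0.23) were not called. The summed level of the 16 genes was 1353 to 1704 CPM in MUTEPPP#3 and 888 to 957 CPM in MUTEv5#2. Most of it came from *TGG1*, so the gap between these sums follows *TGG1* and does not speak for the other members. The epidermis and cuticle list, which marks the tissue that holds the stomata, had 0 of 15 members called and a median of 0.06. With 2.47% of all genes tested called, 0 of 15 does not set this list apart. Its summed levels were 1418 to 2144 CPM in MUTEPPP#3 and 1505 to 1780 CPM in MUTEv5#2.

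**Figure D2:**
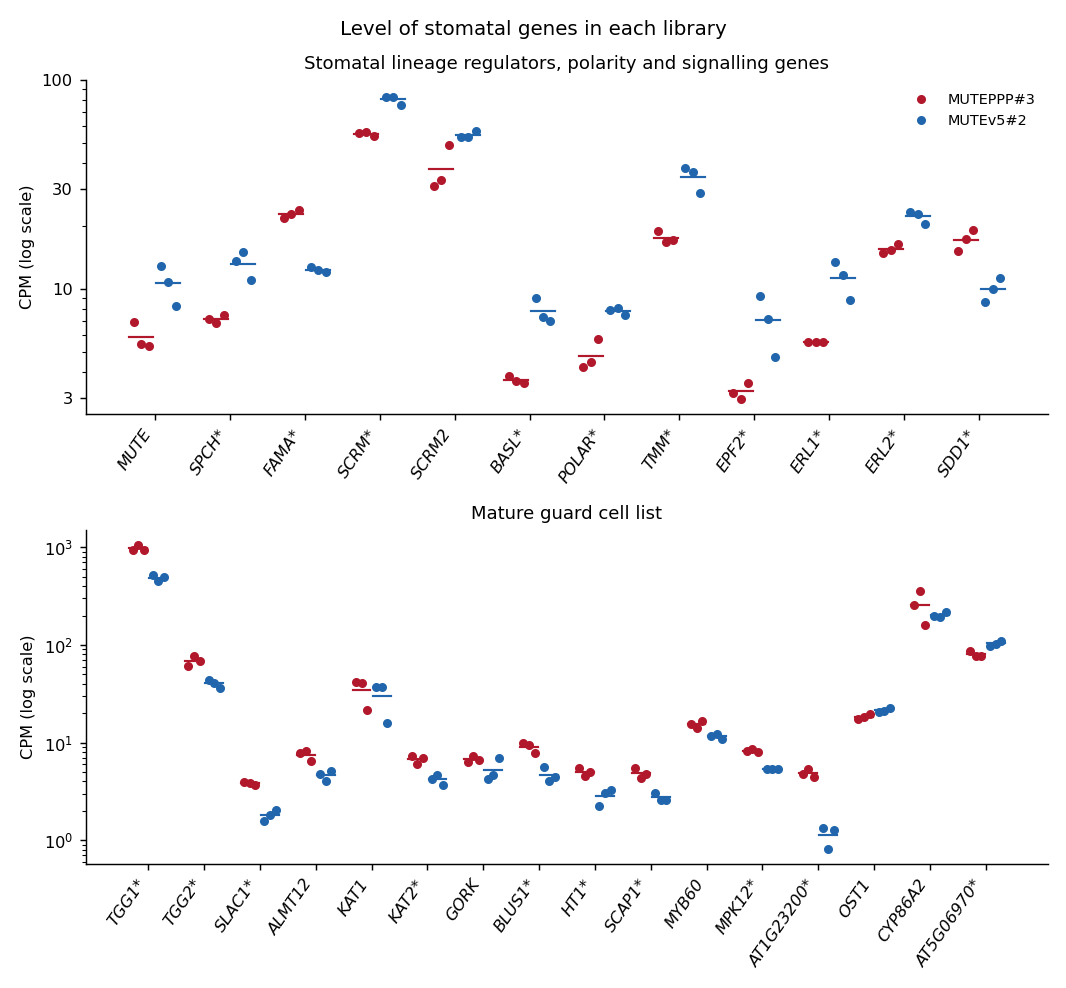
The level (CPM, log scale) of stomatal lineage genes (top) and of the 16 guard cell genes (bottom) in the 3 MUTEPPP#3 libraries, drawn left, and the 3 MUTEv5#2 libraries, drawn right. Bars are means and asterisks mark an adjusted p under 0.05. *SPCH*, *BASL*, *TMM* and *ERL1* lie lower in MUTEPPP#3, and *FAMA*, *TGG1*, *SLAC1* and AT1G23200 lie higher. Levels are not per transcript length and are not to be set side by side between genes.

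The medians of both stomatal lists kept their sign in the fit with the clock index, while the calls were lost. Under the clock index as a covariate the median was -0.46 for the early lineage list and 0.74 for the guard cell list, with 0 members called in either. *FAMA* was at 0.89, *TGG1* at 0.93, *SPCH* at -0.67, *TMM* at -0.66 and *SDD1* at 0.39. With MUTEPPP#3 replicate 1 alone for its line, the medians were -0.59 and 0.68. Over the 6 runs that left out 1 library, the early lineage list had 1 to 7 members called lower and the guard cell list 2 to 8 called higher. *SCRM* (-0.56), *TMM* (-0.93) and *ERL1* (-1.02) were not called without MUTEPPP#3 replicate 2, and *TGG1* (0.94) and *TGG2* (0.68) without MUTEPPP#3 replicate 2 or MUTEv5#2 replicate 2. *SPCH* (-0.77, the value closest to 0), *EPF2* (-0.88) and *SDD1* (0.70) were not called without MUTEPPP#3 replicate 2 or 3 or MUTEv5#2 replicate 1 or 2. *FAMA* (0.85) was lost without replicate 2 or 3 of either line, and *POLAR* (-0.66) without MUTEPPP#3 replicate 2 or any single MUTEv5#2 library. *ERL2* (-0.48), *KAT2* (0.59), *SCAP1* (0.79), *BLUS1* (0.86), *MPK12* (0.60) and AT5G06970 (-0.32) were lost without any of these libraries other than MUTEPPP#3 replicate 1, and *HT1* (0.69) without any 1 of the 6.

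Copper genes differed between the lines in both directions. Plants short of copper raise copper uptake genes through the factor SPL7 and swap copper proteins for other forms: the microRNA miR398 lowers the transcripts of the copper/zinc superoxide dismutases CSD1 and CSD2 and of their copper chaperone CCS, and the iron superoxide dismutase FSD1 is made in their place. In MUTEPPP#3, 5 of 10 copper deficiency genes were called lower than in MUTEv5#2 and 0 higher, with a median of -0.94, against 1.4% of all genes tested called lower. Of 6 copper protein genes, 3 were called higher and 0 lower, with a median of 0.85, against 1.06% of all genes called higher. These lists too were chosen with earlier results of these data known. All but *COPT6* of the deficiency list lay below MUTEv5#2 in every MUTEPPP#3 library, as did 15.6% of all genes tested.

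*COPT2* (AT3G46900, chr3:17268700-17269510, plus strand), a copper transporter gene, had 23, 7 and 11 counts in MUTEPPP#3, against 856, 316 and 880 counts in MUTEv5#2. In CPM these were 0.146, 0.0505 and 0.0708 in MUTEPPP#3 and 6.29, 2.44 and 6.16 in MUTEv5#2, a log2 fold change of -5.77 (adjusted p = 0.00365, SE 0.613). *FRO4* (AT5G23980, chr5:8097978-8101330, minus strand), a ferric and cupric reductase gene, had 37, 26 and 22 counts in MUTEPPP#3, against 1488, 540 and 1543 counts in MUTEv5#2 (-5.51 (adjusted p = 0.00791, SE 0.722)). Both genes were near silent in all 3 MUTEPPP#3 libraries, and MUTEv5#2 replicate 2 was the lowest of its line in both. *COPT2* averaged 3.12 ± 1.53 CPM in MUTEv5#5 and 5.899 ± 2.38 CPM in MUTE. *FRO4* has a near copy, *FRO5*, not analysed here, so that reads may be shared.

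*ZIP2*, a metal transporter gene, had 19.2, 12.9 and 12.6 CPM in MUTEPPP#3, against 48.4, 40.6 and 46.03 CPM in MUTEv5#2 (-1.597 (adjusted p = 0.00447, SE 0.178)). *YSL2*, of metal nicotianamine transport, had 10.6, 6.89 and 6.84 CPM in MUTEPPP#3, against 25.2, 21.9 and 20.9 CPM in MUTEv5#2 (-1.48 (adjusted p = 0.0178, SE 0.248)); it overlaps a gene on the other strand. *FSD1* had 339.5, 283 and 222 CPM in MUTEPPP#3, against 727, 539 and 623 CPM in MUTEv5#2 (-1.16 (adjusted p = 0.0162, SE 0.189)). The copper chaperone gene *CCH* (-0.73, adjusted p = 0.0605), *YSL3* (-0.64), *COPT1* (-0.43) and *SPL7* itself (-0.30, adjusted p = 0.305) lay lower without passing, and *COPT6* was at 0.15.

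*CSD2*, the chloroplast copper/zinc superoxide dismutase gene, had 438, 459 and 458 CPM in MUTEPPP#3, against 94.97, 139.9 and 109 CPM in MUTEv5#2. The groups were far apart, with a log2 fold change of 1.98 (adjusted p = 0.00211, SE 0.191). *CSD1*, the cytosolic form, had 244, 222 and 231 CPM in MUTEPPP#3, against 98.8, 130.4 and 108 CPM in MUTEv5#2 (1.05 (adjusted p = 0.0205, SE 0.182)), and overlaps a gene on the other strand. *CCS* had 96.4, 102 and 109 CPM in MUTEPPP#3, against 35.7, 47.1 and 39.7 CPM in MUTEv5#2 (1.32 (adjusted p = 0.00211, SE 0.123)). MUTEv5#5 had 162 ± 35.96 CPM of *CSD2* and 52.5 ± 5.86 CPM of *CCS*, and MUTE had 111 ± 17.4 CPM of *CSD2* and 42.3 ± 4.004 CPM of *CCS* (SD, n = 3 each), so that the MUTEPPP#3 mean stood above those of all 3 other lines in both. The plastocyanin genes *PETE1* (-0.21) and *PETE2* (0.03) did not pass.

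**Figure D3:**
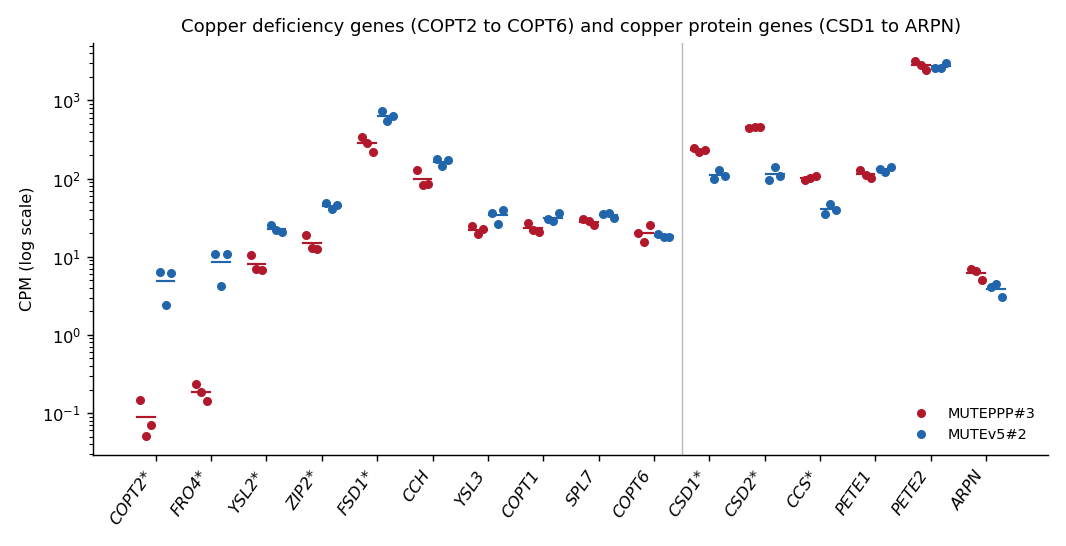
The level (CPM, log scale) of 10 copper deficiency genes and 6 copper protein genes in the 3 MUTEPPP#3 libraries, drawn left, and the 3 MUTEv5#2 libraries, drawn right. Bars are means and asterisks mark an adjusted p under 0.05. *COPT2* and *FRO4* are far lower in MUTEPPP#3, and *CSD1*, *CSD2* and *CCS* are higher.

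The miR398 sequence and its best matches in these 3 transcripts are shown because all 3 higher transcripts are known targets of this microRNA. The mature miR398b-3p (chr5:4691107-4691127, plus strand) is given with its seed, bases 2 to 8, in capitals; miR398c-3p has the same sequence. Below it is the ungapped stretch of 21 bases in each transcript with the most bases complementary to miR398b-3p, which are in capitals.
miR398b-3p: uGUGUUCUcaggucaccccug
CSD1 stretch: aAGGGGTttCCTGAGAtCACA
CSD2 stretch: tgcGGGTGACCTGgGAAacat
CCS stretch: attGGGaGACCTGgGAACACt

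The *CSD1* stretch lies in the 5' UTR across the junction of exons 1 and 2 (chr1:2827177-2827685, plus strand, with an intron between) and has 17 of 21 complementary bases. Among the longest transcripts of 21155 tested protein-coding genes, 4 had a stretch with at most 4 mismatches. The *CSD2* stretch is in the coding sequence of exon 4 (chr2:12015572-12015592, plus strand) with 13 of 21, and the *CCS* stretch in that of exon 5 (chr1:4267521-4267541, minus strand) with 15 of 21, without gaps or G-U pairs counted. Stretches of 6 or fewer mismatches, as in *CCS*, were found in 253 of the 21155. Those of 8 or fewer, as in *CSD2*, were found in 7879 (37.2%), so the *CSD2* stretch is not set apart by this count. The microRNA precursors, chosen after their values were seen, had few counts: *MIR398b* had 5, 3 and 3 in MUTEPPP#3, against 24, 7 and 11 in MUTEv5#2 (-2.04, adjusted p = 0.242). *MIR398c* (-0.92, adjusted p = 0.403) and *MIR408*, another copper-responsive microRNA gene (-1.78, adjusted p = 0.122), did not pass either.

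SPL7 is known to bind GTAC, the core of the copper response element. This motif, which is its own reverse complement, was in the 250 bases before the gene start of 5 of 10 copper deficiency genes, and of 34.7% of 21155 tested protein-coding genes. *ZIP2* and *YSL2* had 3 copies each, *FSD1* had 1, and *COPT2* and *FRO4* had 0 in this window. The *ZIP2* window is printed with GTAC in capitals (chr5:23992909-23993158, minus strand, RefSeq TAIR10.1).
ZIP2 upstream: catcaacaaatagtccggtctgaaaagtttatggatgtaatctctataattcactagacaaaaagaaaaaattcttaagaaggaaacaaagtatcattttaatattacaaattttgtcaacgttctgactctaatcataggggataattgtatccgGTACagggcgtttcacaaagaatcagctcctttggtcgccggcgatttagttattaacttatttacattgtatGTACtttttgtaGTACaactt

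The called copper genes kept their direction in the fit with the clock index, and the fold changes of *YSL2* and *FSD1* were smaller. *CCS* was still called with the clock index as a covariate, at 1.08 (adjusted p = 0.0452), and *CSD2* was at 1.72 (adjusted p = 0.0502), *COPT2* at -4.88 (adjusted p = 0.0652), *FRO4* at -4.62, *ZIP2* at -1.34, *FSD1* at -0.70 and *YSL2* at -0.71. With MUTEPPP#3 replicate 1 alone for its line *COPT2* was at -5.08 and *CSD2* at 1.94. *COPT2*, *ZIP2*, *CSD2* and *CCS* were called without any 1 of the 6 libraries. *FRO4* (-5.51) was not called without MUTEPPP#3 replicate 2. *FSD1* (-1.02) was not called without MUTEPPP#3 replicate 2 or 3 or MUTEv5#2 replicate 1 or 3, and *YSL2* (-1.37) without MUTEPPP#3 replicate 2 or 3 or MUTEv5#2 replicate 1 or 2. *CSD1* (0.96) was lost without any of these libraries other than MUTEPPP#3 replicate 1.

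Clock genes varied widely among the MUTEPPP#3 libraries. The morning factors CCA1 and LHY repress evening genes such as *TOC1*, *LUX* and *GI*, and the products of *TOC1* and *LUX* in turn repress morning genes, so that the lists peak at opposite times of day. Of 13 evening genes 3 were called higher and 0 lower, with a median of 1.77, against 1.06% of all genes tested called higher. Of 12 morning genes 1 was called lower and 0 higher, with a median of -0.90, against 1.4% of all genes called lower. The members that define the clock index are these same genes, so the index is no independent measure of them.

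*COR27*, an evening gene induced by cold, had the largest rise among the called genes that averaged at least 1 CPM, at 0.756, 23.9 and 76.5 CPM in MUTEPPP#3, against 0.125, 0.3705 and 0.679 CPM in MUTEv5#2. Replicates 2 and 3 of MUTEPPP#3 were the high ones (6.42 (adjusted p = 0.0372, SE 1.33)), and MUTEPPP#3 replicate 1 stood near the highest MUTEv5#2 library. *PRR3*, a pseudo-response regulator gene, had 1.37, 11.2 and 17.9 CPM in MUTEPPP#3, against 0.808, 0.834 and 1.04 CPM in MUTEv5#2 (3.505 (adjusted p = 0.0495, SE 0.809)), and *LUX*, of the evening complex, had 26.4, 56.4 and 80.5 CPM in MUTEPPP#3, against 13.9, 17.3 and 16.6 CPM in MUTEv5#2 (1.77 (adjusted p = 0.0301, SE 0.343)). *LUX* overlaps a gene on the other strand. *FKF1*, a blue light receptor gene of the evening, had 6.51, 53.98 and 93.96 CPM in MUTEPPP#3, against 0.918, 1.45 and 5.19 CPM in MUTEv5#2, without a call (4.35, adjusted p = 0.11). AT4G33980 (4.57, adjusted p = 0.0536), *PRR5* (2.77), *ELF4* (2.31), *TOC1* (1.37) and *GI* (1.08) did not pass either.

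*LNK1*, a morning gene that promotes evening gene expression, was the morning call, at 33.7, 25.2 and 19.3 CPM in MUTEPPP#3, against 61.6, 59.3 and 67.7 CPM in MUTEv5#2 (-1.27 (adjusted p = 0.0112, SE 0.182)). It overlaps a gene on the other strand. *CCA1* had 26.6, 8.32 and 5.01 CPM in MUTEPPP#3, against 70.04, 72.8 and 62.4 CPM in MUTEv5#2 (-2.36, adjusted p = 0.0903). *LHY* had 30.4, 4.84 and 3.79 CPM in MUTEPPP#3, against 56.3, 58.6 and 34.7 CPM in MUTEv5#2 (-1.94, adjusted p = 0.391). Both were lower in every MUTEPPP#3 library and lowest in replicates 2 and 3. *PRR9* (-0.18) and *PRR7* (0.13) had overlapping groups.

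With the clock index as a covariate *COR27* was at 0.28, *PRR3* at -0.18, *LUX* at 0.63 and *LNK1* at -0.90, and with MUTEPPP#3 replicate 1 alone for its line at 0.95, 0.61, 0.73 and -0.90, in this order. *COR27* (4.97), *PRR3* (2.81) and *LUX* (1.38) were not called without any 1 of the 6 libraries other than MUTEPPP#3 replicate 1, and *LNK1* (-1.25) without MUTEPPP#3 replicate 2. The evening list had 8 members called higher without MUTEPPP#3 replicate 1 and 0 in each of the other 5 runs that left out 1 library.

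The evening element AAAATATCT, through which morning factors act on evening genes, was in the 250 bases before the gene start, on either strand, of 6 of 13 evening genes, 1 of 12 morning genes and 2.44% of 21155 tested protein-coding genes. Of the genes called higher 14 of 235 protein-coding genes (5.96%) held it, and of those called lower 3 of 294 (1.02%). *LUX* had 1 copy, shown in capitals in its window (chr3:17182792-17183041, plus strand, RefSeq TAIR10.1), while *PRR3* had 0.
LUX upstream: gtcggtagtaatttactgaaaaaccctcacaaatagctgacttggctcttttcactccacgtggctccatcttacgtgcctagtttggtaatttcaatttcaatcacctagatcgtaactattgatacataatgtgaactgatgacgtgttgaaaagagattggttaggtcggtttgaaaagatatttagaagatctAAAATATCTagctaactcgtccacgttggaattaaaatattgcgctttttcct

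The other large falls included genes that stood out in MUTEv5#2. AT3G01345 (AT3G01345, chr3:129138-130749, plus strand), annotated as an uncharacterized protein, had 1.12, 1.39 and 2.903 CPM in MUTEPPP#3, against 205, 184 and 170.5 CPM in MUTEv5#2. This was the largest fall among the called genes that averaged at least 1 CPM and whose groups did not overlap (-6.69 (adjusted p = 0.00217, SE 0.657)). The gene averaged 1.12 ± 0.674 CPM in MUTEv5#5 and 0.553 ± 0.458 CPM in MUTE, so that MUTEv5#2 alone was high. The noncoding RNA gene AT2G06002 likewise had 0.496, 0.505 and 0.567 CPM in MUTEPPP#3, against 8.41, 6.099 and 9.17 CPM in MUTEv5#2 (-3.91 (adjusted p = 0.00114, SE 0.3201)), with 0.628 ± 0.229 CPM in MUTEv5#5 and 0.487 ± 0.185 CPM in MUTE. Both calls held without any 1 of the 6 libraries, and AT2G06002 was also called with the clock index as a covariate (-3.59, adjusted p = 0.0452).

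*LBD41*, a LOB domain gene induced by low oxygen, had 7.96, 9.78 and 10.9 CPM in MUTEPPP#3, against 61.1, 40.6 and 81.5 CPM in MUTEv5#2 (-2.68 (adjusted p = 0.0389, SE 0.566)). *RPT2*, a phototropism signalling gene, had 80.2, 44.8 and 57.2 CPM in MUTEPPP#3, against 311, 245 and 309 CPM in MUTEv5#2 (-2.25 (adjusted p = 0.0113, SE 0.327)). *DIR1*, a lipid transfer protein gene of systemic resistance, had 5.898, 3.74 and 4.81 CPM in MUTEPPP#3, against 17.97, 25.3 and 21.6 CPM in MUTEv5#2 (-2.17 (adjusted p = 0.00614, SE 0.267)), a call that held without any 1 of the 6 libraries; it overlaps a gene on the other strand. The receptor kinase gene AT1G29720 (-2.20), the polyketide cyclase family gene AT1G55960 (-2.17) and AT1G33055 (-2.15), annotated as uncharacterized and overlapping a gene on the same strand, completed the 10 largest falls. *RPT2* (-2.07) was not called without MUTEPPP#3 replicate 2 or 3, and AT1G29720 (-2.03) and AT1G55960 (-2.18) without MUTEPPP#3 replicate 2. *LBD41* (-2.42) and AT1G33055 (-2.03) were lost without any of the 6 libraries other than MUTEPPP#3 replicate 1.

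All of these falls kept their sign under the clock index, with AT2G06002 the single call among them. There AT3G01345 was at -6.51 (adjusted p = 0.0715), *LBD41* at -3.07, *RPT2* at -1.58, *DIR1* at -1.69, AT1G29720 at -1.46, AT1G55960 at -1.98 and AT1G33055 at -2.24. With MUTEPPP#3 replicate 1 alone for its line the falls ran from -7.38 (AT3G01345) to -1.51 (AT1G29720), with *RPT2* at -1.84.

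Among the largest rises after *COR27*, several had MUTEPPP#3 replicates 2 and 3 well above replicate 1. AT1G17665, annotated as a CA-responsive protein, had 1.33, 9.33 and 23.2 CPM in MUTEPPP#3, against 0.625, 0.787 and 1.04 CPM in MUTEv5#2 (3.78 (adjusted p = 0.0348, SE 0.762)). *COL9*, a CONSTANS-like gene, had 6.88, 30.7 and 90.8 CPM in MUTEPPP#3, against 3.204, 4.62 and 6.14 CPM in MUTEv5#2 (3.20 (adjusted p = 0.0415, SE 0.692)), and *BBX8*, another B-box gene, had 13.5, 52.02 and 91.5 CPM in MUTEPPP#3, against 6.26, 7.82 and 8.56 CPM in MUTEv5#2 (2.79 (adjusted p = 0.024, SE 0.509)). In all 3 genes MUTEPPP#3 replicate 1 lay close to MUTEv5#2 and replicates 2 and 3 far above it. *BBX8* had 3 evening elements in its window and overlaps a gene on the other strand. *RLP33*, a receptor-like protein gene, did not have this split, at 4.77, 15.1 and 3.45 CPM in MUTEPPP#3, against 1.07, 0.679 and 1.34 CPM in MUTEv5#2 (2.91), with replicate 3 the lowest of MUTEPPP#3. The major facilitator gene AT4G34950, at 114, 177 and 171 CPM in MUTEPPP#3, against 23.2, 38.8 and 27.9 CPM in MUTEv5#2 (2.37), was far above MUTEv5#2 in MUTEPPP#3 replicate 1 as well. The cyclophilin-like gene AT2G21130 (3.29), the defensin gene *PDF2.1* (2.74) and the heat shock factor gene *HSFA6B* (2.55) also rose, with *PRR3* among the 10. *RLP33* with the clock index as a covariate was at 2.41, the others of this paragraph between 0.51 (*COL9*) and 1.09 (AT4G34950) apart from *PRR3*, and none was called. With MUTEPPP#3 replicate 1 alone for its line they ran from 0.56 (*COL9*) to 2.21 (*RLP33*), with AT4G34950 at 1.93. Without MUTEPPP#3 replicate 3 *COL9* was at 2.01. *RLP33* (1.99) was not called without MUTEPPP#3 replicate 2 or any single MUTEv5#2 library, and the others were lost without any of the 6 libraries other than MUTEPPP#3 replicate 1. The lost values closest to 0 were 2.70 for AT1G17665 and 2.12 for *BBX8*.

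**Figure D4:**
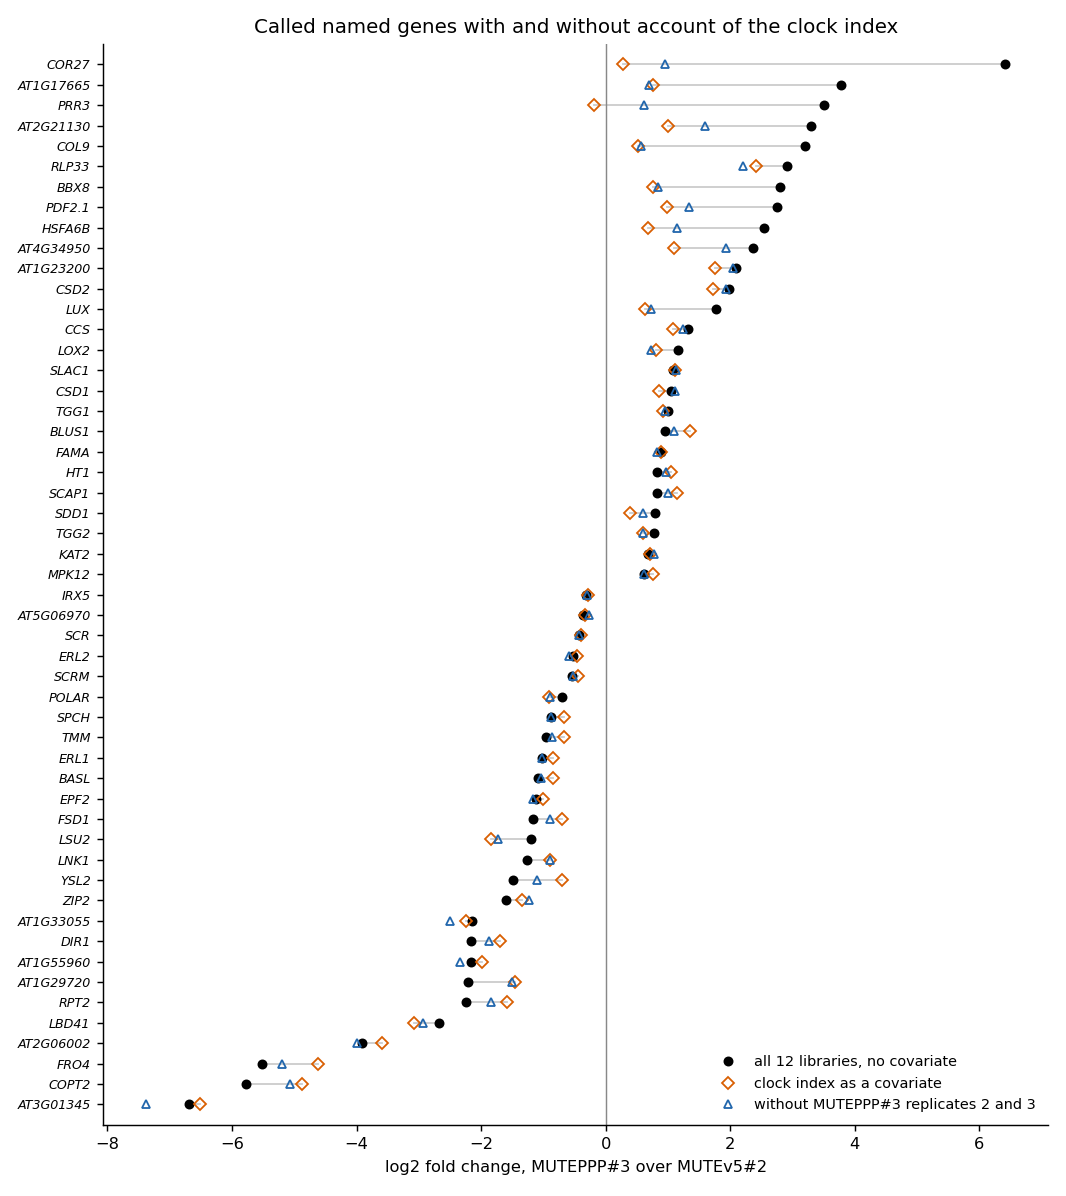
The log2 fold change (x axis, MUTEPPP#3 over MUTEv5#2) of the 52 named genes that were called, under the fit of all 12 libraries (filled circles), with the clock index as a covariate (diamonds) and without MUTEPPP#3 replicates 2 and 3 (triangles). The rises from *COR27* to *BBX8* move towards 0 in both, *RLP33* by less than the others, while most stomatal and copper genes move less than these.

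Among the 52 named genes called, 51 had the same sign with the clock index as a covariate and 52 without MUTEPPP#3 replicates 2 and 3, and 10 were called without any 1 of the 6 libraries. These 10 were AT3G01345, *COPT2*, AT2G06002, *DIR1*, *ZIP2*, *BASL*, *SLAC1*, *CCS*, *CSD2* and AT1G23200.

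Outside the stomatal, copper and clock lists, 5 members of other lists were called. *LOX2*, a lipoxygenase gene of jasmonate synthesis, had 57.03, 102 and 71.01 CPM in MUTEPPP#3, against 33.7, 39.4 and 30.2 CPM in MUTEv5#2 (1.16 (adjusted p = 0.024, SE 0.211)). *LSU2*, a gene induced by sulfur shortage, was lower at 0.8898, 1.49 and 1.46 CPM in MUTEPPP#3, against 2.93, 2.83 and 3.09 CPM in MUTEv5#2 (-1.21 (adjusted p = 0.0278, SE 0.228)). *SCR*, a root patterning factor gene (-0.43, adjusted p = 0.049), and *IRX5*, a cellulose synthase gene of the xylem (-0.32, adjusted p = 0.0493), were slightly lower, and *LBD41* is given above. *IRX5* overlaps genes on both strands. These 4 calls were lost without any 1 of the 6 libraries other than MUTEPPP#3 replicate 1, at 0.90 for *LOX2*, -1.17 for *LSU2*, -0.36 for *SCR* and -0.29 for *IRX5*. Under the clock index *LOX2* was at 0.81, *LSU2* at -1.84, *SCR* at -0.40 and *IRX5* at -0.28, and none was called. With MUTEPPP#3 replicate 1 alone for its line *LOX2* was at 0.73 and *LSU2* at -1.73. Of 36 lists, 22 had no member called, with medians from -0.58 (heat shock) to 1.26 (cold and abscisic acid response). With 2.47% of all genes tested called, a list of this size is not set apart by having no call. Of the 410 list genes tested, 18 were called higher and 19 lower, against 1.06% and 1.4% of all genes tested. The lists were chosen with earlier results of these data known.

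**Figure D5:**
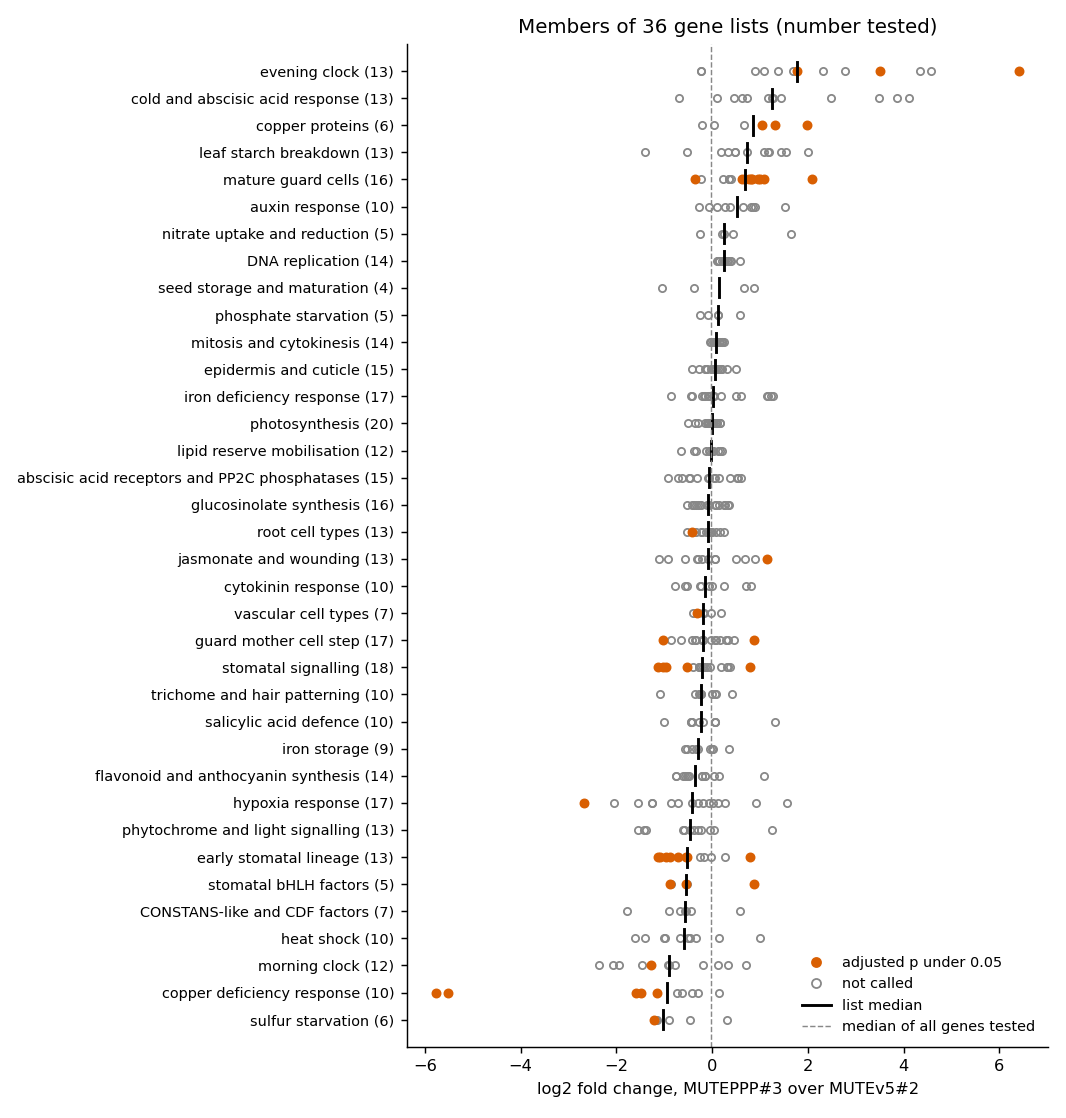
The log2 fold change (x axis, MUTEPPP#3 over MUTEv5#2) of each member of the 36 gene lists, ordered by list median (black bars), with called genes filled. The dashed line is the median of all genes tested, -0.02. Called genes gather in the guard cell and copper protein lists above 0 and in the early lineage and copper deficiency lists below 0.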

How the data were processed

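The values are whole-number counts for every gene in every library, as the authors deposited them. The submitters' processing notes name the TAIR10 build and, with no order, StringTie 2.1.3b, HISAT2 2.1.0, Bowtie2 2.3.4.1, Trimmomatic 0.38, DESeq2 and FastQC, and per the labels a TruSeq stranded mRNA kit was used. Which tool counted, and with what strand setting, is not given in the sources used here. Every library's lowest value was 1, and 80 genes stood at 1 in all 12, so that 1 may have been added to the values. The 27 entries that name no gene held at most 5.96e-04% of a library and were left out.

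Genes were tested with edgeR 4.0.16 (R 4.3.3), with the quasi-likelihood test, TMM scaling, filterByExpr (435 genes left out) and 1 fit of 4 group means over 12 libraries, and adjusted by Benjamini-Hochberg over 22636 genes. The common biological coefficient of variation was 0.215, and any pair of libraries of a line differed by a chi-square of at least 82.8 per degree of freedom, far above counting error. The replicates are biological, per the labels. CPM use TMM-scaled totals. Members and lists were chosen with earlier results of these data known. Named genes are *MUTE*, the 10 largest rises and 10 largest falls (called, at least 1 CPM on average, groups not overlapping), called list members and the 4 smallest p of each list; *MIR398b*, *MIR398c* and *MIR408* were added after their values were seen. Sequences are from RefSeq TAIR10.1, whose annotation holds all 27 mitochondrial intervals that the counts name. The alternatives included DESeq2 1.42.0 and limma-voom 3.58.1. After the main fit, the same test was run on simulated counts with libraries drawn independently. These held no clock variation shared by genes, so that run does not cover it.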

Additional observations from a re-analysis of the deposited data

How the results depend on the processing

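The 558 called genes became 526 with RLE scaling, 396 with library totals as the only scaling, 487 with limma-voom, 484 without a filter, 556 with at least 10 counts in at least 6 libraries and 554 with 1 subtracted from every value. They became 2124 with DESeq2, 129 with only the 6 libraries compared, 16 with the clock index as a covariate, 41 with the organelle and ribosomal share and 5 without MUTEPPP#3 replicates 2 and 3, an alternative chosen after seeing the data. Between MUTEPPP#3 and MUTEv5#2, deviations from the line mean were not alike at the same replicate number (correlations -0.0574, -0.129 and 0.0235 for numbers 1, 2 and 3). Replicate 1 had the highest clock index of its line in every line (4.32 in MUTE, 2.63 in MUTEv5#2, 3.80 in MUTEv5#5, 1.24 in MUTEPPP#3). Whether replicate numbers mark a shared batch was not tested. With a replicate block 810 genes were called, 505 of them among the 558, with 5 evening genes and *MUTE* at -0.85 (SE 0.125). *MUTE* was called with DESeq2 at -0.85 and ran from -1.01 to -0.70 without 1 library each.

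Of the early lineage genes 0 were called lower with the clock index, 2 with the organelle share, 3 with only the 6 libraries and 0 without MUTEPPP#3 replicates 2 and 3. Of the guard cell genes 0, 2, 4 and 0 were called higher under these 4 settings in the same order. Of the copper deficiency genes 0 were called with the clock index, 3 with the organelle share and 0 without MUTEPPP#3 replicates 2 and 3. Of the copper protein genes 1 was called with the clock index and 0 without these replicates. Of the evening genes 9 were called with DESeq2, 1 with limma-voom, 2 with library totals and 0 with only the 6 libraries, with the clock index, with the organelle share and without these replicates. Without 1 library each, the called genes ran from 40 to 1904, early lineage genes from 1 to 7, guard cell genes from 2 to 8, copper deficiency genes from 2 to 6, copper protein genes from 2 to 3 and evening genes from 0 to 8. The cause of these changes was not tested.

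Signs that reversed belonged to named genes that were not called, other than *PRR3*. Under the clock index these were *PRR3* (-0.18), *ABI5* (-0.32), *AOC2* (-1.07), AT4G33980 (-0.28), *CDF2* (0.33), *CDF3* (0.45), *CKX4* (-0.56), *COL2* (0.27), *CSY2* (-0.10), *CYCB1;3* (-0.097), *CYCB1;4* (-0.049), *CYCB2;2* (-0.065), *EM6* (1.31), *F3H* (1.08), *GBSS1* (0.23), *HSFA2* (0.13), *HSP70* (0.87), *MIR398b* (0.17), *MIR398c* (0.33), *NIA1* (-0.12), *NRT2.1* (-0.098), *PWD* (-0.45), *RCA* (0.026), *TT19* (0.60) and *VSP2* (-0.26). Without MUTEPPP#3 replicates 2 and 3 they were *AOC2* (-0.25), *CDF3* (0.26), *EM6* (0.78), *LHCB2.1* (0.019), *PHT1;4* (0.10), *RCA* (0.030) and *XCP1* (0.051). Without 1 library each, *CKX4* ran from -0.030 (MUTEPPP#3 replicate 3 left out) to 1.03, *EM6* from -1.81 to 0.060 (MUTEPPP#3 replicate 2) and *PHT1;4* from -0.17 to 0.033 (MUTEv5#2 replicate 2), and *PHT1;4* was at 0.0055 with the organelle share.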

Other observations

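Of 17 low-oxygen genes *LBD41* was the single call, with 12 log2 fold changes below 0 and 5 above, and 6 genes lay below MUTEv5#2 in every MUTEPPP#3 library, as did 15.6% of all genes tested. *HRA1*, a repressor gene of the hypoxia response, had 6.09, 8.94 and 10.4 CPM in MUTEPPP#3, against 34.5, 27.4 and 43.6 CPM in MUTEv5#2 (-2.05, adjusted p = 0.0896). *PCO1* and *PCO2*, oxygen-sensing cysteine oxidase genes, were at -1.55 and -1.25. All 3 were among these 6, while the fermentation genes *ADH1* (0.12) and *PDC1* (-0.07) overlapped. The summed level of the 17 hypoxia genes was 214 to 274 CPM in MUTEPPP#3 and 356 to 501 CPM in MUTEv5#2. This sum follows a few members and does not speak for the list as a whole. *SRO5* had 13601 counts in MUTEv5#2 replicate 3, against 613 and 414 in MUTEv5#2 replicates 1 and 2 and 1422, 491 and 543 in MUTEPPP#3. The number called lower varied with the setting. It was 5 with DESeq2 and 4 with only the 6 libraries compared, and 0 with the clock index or the organelle share as a covariate. The cold and abscisic acid list had the highest median of the lists without a call, 1.26 over 13 genes, and its values followed single libraries. *RD29A* had 516, 1847 and 145 CPM in MUTEPPP#3, against 82.1, 72.03 and 291 CPM in MUTEv5#2, and *CBF1*, a cold response factor gene, had 21.7, 28.7 and 17.2 CPM in MUTEPPP#3, against 0.4997, 0.787 and 23.7 CPM in MUTEv5#2. *CBF3* alone of the CBF genes was above MUTEv5#2 in every MUTEPPP#3 library (7.297, 9.39 and 4.004 CPM, against 0.265, 0.332 and 0.819 CPM in MUTEv5#2, adjusted p = 0.0704).

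Leaf starch breakdown genes had a median of 0.73 over 13 members with 0 called. With 2.47% of all genes tested called, 0 calls in a list of this size, here and below, do not set it apart. *PWD*, a starch phosphorylating enzyme gene, had 34.7, 149 and 189.9 CPM in MUTEPPP#3, against 26.1, 27.7 and 40.1 CPM in MUTEv5#2 (2.00, adjusted p = 0.0929), and *SEX1* had 84.1, 395 and 387 CPM in MUTEPPP#3, against 77.7, 85.3 and 155 CPM in MUTEv5#2 (1.44, adjusted p = 0.286). In both MUTEPPP#3 replicates 2 and 3 were high and replicate 1 lay among the MUTEv5#2 libraries, the split that the clock index shows. All 14 DNA replication genes had log2 fold changes above 0, from 0.09 (*CDT1A*) to 0.58 (*CDC6*), with 0 called. Of the 14, 2 lay above MUTEv5#2 in every MUTEPPP#3 library, against 11.6% of all genes tested. Of 17 iron deficiency genes 0 were called and the median was 0.02, with *IRT1* at 1.91, 0.454 and 0.708 CPM in MUTEPPP#3, against 0.492, 3.06 and 0.05598 CPM in MUTEv5#2, a spread within each line as wide as any difference between them. Of 9 iron storage genes 0 were called, and 5 lay below MUTEv5#2 in every MUTEPPP#3 library, against 15.6% of all genes tested, among them the ferritin gene *FER1* (-0.52, adjusted p = 0.195).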
